A study of Rattus norvegicus with 108 samples.

Results

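Microglia1 is one of the pair of microglial subtypes that the authors named in the dorsal dentate gyrus (dorDG) of the rat. Its cells were taken as every cell carrying that name in the authors' cell annotation, which gave 107 of 1289 dorDG cells (8.30%) and of 3517 cell columns in the series. The tissue was punched from brains of male Long-Evans rats from Charles River, 2 months old at the start. For 6 weeks the FT group received fluoxetine at 18 mg per kg body weight and the Sham group received water. The labels name no other agent and no altered allele in either group. Each replicate pooled tissue of several animals, and the libraries were 10x Genomics 3′ libraries that count RNA molecules by unique molecular identifiers (UMIs). The labels speak of nuclei, the study's methods of nuclei and whole cells, and neither says which reaction held which. Microglia1 came from 4 FT replicates (numbers 1, 2, 4 and 5), with 14, 7, 16 and 11 cells, and from 5 Sham replicates, with 16, 14, 6, 11 and 12 cells.

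Microglia are the resident phagocytes of the brain. They depend on signals through the receptor Csf1r, release the C1q proteins that start the classical complement cascade, and survey the tissue with receptors such as Cx3cr1 and P2ry12. Activated microglia secrete chemokines and interleukin-1.

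Of all dorDG cells 24.2% came from second reactions of replicates 1 and 2, but only 1.87% of Microglia1 (2 cells) and 8.74% of Microglia2 did. Microglia1 cells were deep, with a median of 6669 UMIs and 2237 genes against 1925 UMIs and 952 genes in the 103 Microglia2 cells. Summed counts per replicate ran from 26459 UMIs in Sham replicate 3 to 121939 in Sham replicate 1. The level of a gene is given below in UMIs per 10000 UMIs of the summed cells of a replicate. Oligodendrocyte transcripts were found in every cell type: the 8 genes of that list summed to 65.8 in Microglia1, 69.3 in Microglia2 and at least 42.2 in each other type, against 534 in Oligodend1, so a level of that order was common to all types. Across the 13 reactions 3 cell barcodes occurred more than once, and 1 of the cells that carried them was Microglia1. In 8 Microglia1 cells under 1000 genes were detected, the lower limit written in the study's methods.

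The markers divided. C1qa, a chain of complement C1q, stood at 30.9 ± 4.80 UMIs per 10000 (SD, n = 9) in Microglia1 and between 0.556 and 0.870 in the 10 non-microglial types, and Csf1r at 9.97 ± 3.03 against at most 0.480. Cx3cr1, the fractalkine receptor, had only 16 UMIs in 10 of the 107 cells, a level of 0.210 ± 0.222. P2ry12, the ADP receptor of resting microglia, had 3 UMIs, a level of 0.0418 ± 0.0629. After each cell was thinned to 2000 UMIs, Cx3cr1 was seen in 5.26% of Microglia1 cells (exact binomial 95% interval 1.73 to 11.9%; 95 cells, median depth before thinning 6809 UMIs), in 15.7% of Microglia2 cells (7.02 to 28.6%; 51 cells, 4304 UMIs) and in 2.38% of Oligodend2 cells (0.290 to 8.34%; 84 cells, 7286 UMIs), which should lack it. Unthinned, these shares were 9.35% in Microglia1 (10 of 107 cells, 4.57 to 16.5%) and 3.16% in Oligodend2 (3 of 95 cells, 0.656 to 8.95%), and the level in Oligodend2 was 0.0608. P2ry12 was seen in 3 of 107 Microglia1 cells (2.80%, 0.582 to 7.98%), in 6 of 103 Microglia2 cells (5.83%, 2.17 to 12.2%) and in 2 of 95 Oligodend2 cells (2.11%, 0.256 to 7.40%). Thinned, it was seen in 0 of 95 Microglia1 cells, which allows a share of up to 3.16% of cells read at 2000 UMIs. It was likewise seen in 0 of 51 Microglia2 cells and 0 of 84 Oligodend2 cells. The intervals of Microglia1 and Oligodend2 overlapped for both receptors, which is no test of a difference. Cx3cr1 had the higher share and level in Microglia1, with up to 4 UMIs in a cell against 1 in Oligodend2. P2ry12 rests on 3 UMIs in Microglia1. No difference from this background was tested, and the name rests on C1qa, Csf1r and the genes below. Intervals and limits of this kind cover counting error only.

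Some other microglial genes were high. Of the 23 homeostatic microglia genes in the table, only 14 averaged at least 0.5 UMIs per 10000 in Microglia1, and P2ry13 and Olfml3 were at 0. The list summed to between 733 and 1130 UMIs per 10000 over the 9 replicates, against 20.2 to 125 in the non-microglial types. Most of the Microglia1 sum was Cst3. Cst3, the secreted protease inhibitor cystatin C, averaged 724 ± 107, Ctss, the lysosomal protease cathepsin S, 93.6 ± 15, and Tyrobp, the signalling adaptor of Trem2, 19.2 ± 3.38. Genes of neighbouring blood and border cells stood at low levels, though not below other types. The 12 border macrophage genes summed to 0.328 to 5.49, with a mean of 1.51. That mean was above each non-microglial type (at most 0.939), and Microglia2 had 1.27. The 4 blood myeloid genes summed to at most 1.13 with S100a9 and Camp at 0. Their mean of 0.262 was also above each non-microglial type (at most 0.164), and Microglia2 had 0.515. The 5 lymphocyte genes summed to at most 0.129 with Cd3e, Cd3d, Cd2 and Cd79b at 0.

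**Figure D1:**
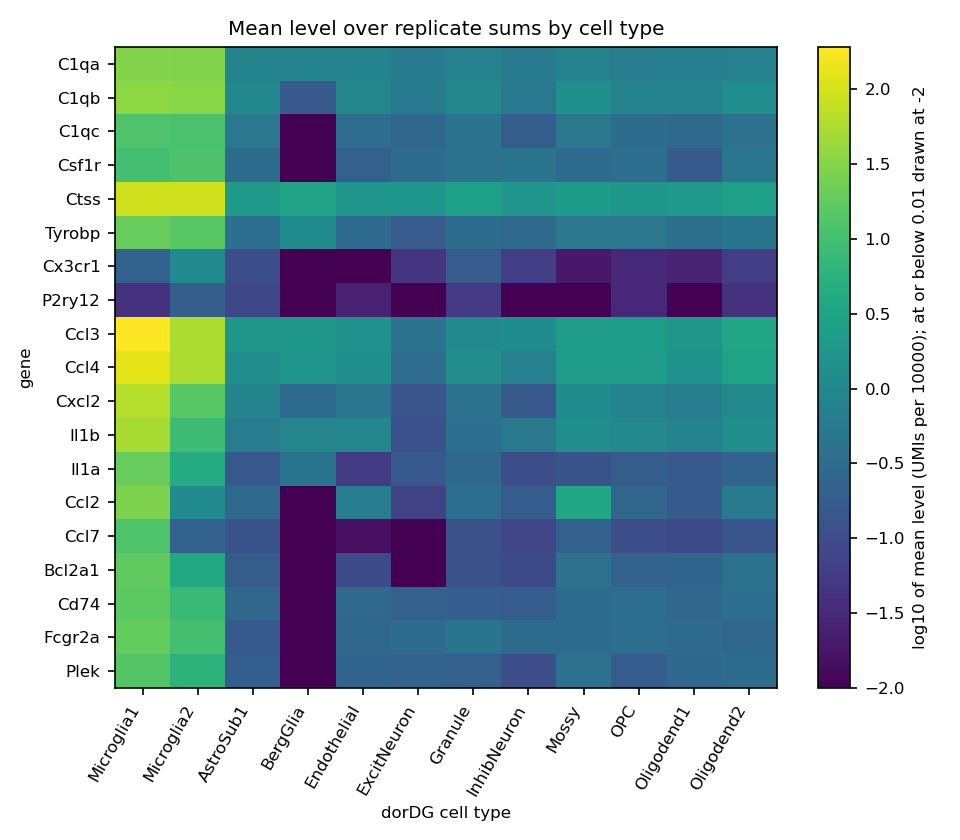
Mean level of 19 microglial and inflammatory genes (rows) in the 12 dorDG cell types (columns), coloured by log10 of UMIs per 10000, with levels at or below 0.01 drawn at -2. C1q genes, Csf1r and Ctss were bright in both microglial columns, the chemokine and interleukin-1 rows were brightest in Microglia1, and Cx3cr1 and P2ry12 were dark in Microglia1.

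Chemokines and both interleukin-1 ligands stood among the highest ratios of Microglia1 over the non-microglial types: Ccl3, Ccl4, Ccl7, Cxcl2, Il1a and Il1b were 6 of the 12 highest. The types were made by clustering these same genes, so the ratios are a description without a test. Among 1370 genes with at least 1 UMI per 10000 in Microglia1, 227 stood at least 4-fold and 85 at least 16-fold above the mean of the 10 non-microglial types. The 12 highest ratios belonged to Lyc2 (a lysozyme gene with close relatives, so that its reads may be shared), Tnfsf18, Ccl7, Ccl3, Cxcl2, Il1a, Bcl2a1, Ccl4, Fcgr2a, Il1b, Plek and Cd74. Lyc2 stood at 2.16 ± 0.793 and had at most 3 UMIs in all non-microglial cells together, so its ratio is not given.

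The upstream sequence of these genes is shown because they were high together. Of the 12 genes, 9 matched a RefSeq promoter (rat assembly GRCr8, 300 bases around the start) by symbol, whereas Ccl3, Ccl4 and Plek did not. Searching both strands, the letters GAGGAA (core of the site of PU.1, a factor known to set myeloid fate) occurred in 7 of the 9 (77.8%), in 18 of 37 matched promoters of the 50 genes of highest ratio (48.6%), in 28.1% of the 867 matched promoters of genes of at least 1 UMI per 10000 in Microglia1, and in 27.6% of all 33469 promoters. The consensus of NF-kB, a family of factors that act on many inflammatory genes, was searched after the leading genes were known, and occurred in 4 of the 9 (44.4%), 11 of the 37 (29.7%), 12.7% of the 867 and 7.51% of all. A match is a run of letters and not a measured site. Of the promoters below, in capitals where either motif matched, those of the chemokine genes Ccl7 and Cxcl2 held both motifs, and those of Il1a and of Bcl2a1, an inhibitor of cell death, held only GAGGAA. Il1b and Lyc2, also among the 9, held neither motif.
Ccl7, chr10:67513845-67514144 (+ strand): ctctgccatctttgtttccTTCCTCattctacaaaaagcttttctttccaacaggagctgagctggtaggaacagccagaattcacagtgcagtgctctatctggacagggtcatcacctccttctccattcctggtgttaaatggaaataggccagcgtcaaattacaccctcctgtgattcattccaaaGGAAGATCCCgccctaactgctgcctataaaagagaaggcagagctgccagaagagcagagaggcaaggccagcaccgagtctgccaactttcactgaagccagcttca
Cxcl2, chr14:17467206-17467505 (- strand): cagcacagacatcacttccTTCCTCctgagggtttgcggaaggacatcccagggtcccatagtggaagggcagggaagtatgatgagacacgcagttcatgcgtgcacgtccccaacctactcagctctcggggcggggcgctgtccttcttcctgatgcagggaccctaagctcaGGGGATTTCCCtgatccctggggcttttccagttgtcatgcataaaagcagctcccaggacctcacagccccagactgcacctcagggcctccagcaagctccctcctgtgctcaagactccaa
Il1a, chr3:136989968-136990267 (- strand): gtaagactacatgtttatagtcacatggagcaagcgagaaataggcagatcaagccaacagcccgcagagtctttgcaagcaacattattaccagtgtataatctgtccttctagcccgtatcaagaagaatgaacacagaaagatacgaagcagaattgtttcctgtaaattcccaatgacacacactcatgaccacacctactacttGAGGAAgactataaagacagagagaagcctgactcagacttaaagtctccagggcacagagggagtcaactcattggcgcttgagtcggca
Bcl2a1, chr8:98596556-98596855 (+ strand): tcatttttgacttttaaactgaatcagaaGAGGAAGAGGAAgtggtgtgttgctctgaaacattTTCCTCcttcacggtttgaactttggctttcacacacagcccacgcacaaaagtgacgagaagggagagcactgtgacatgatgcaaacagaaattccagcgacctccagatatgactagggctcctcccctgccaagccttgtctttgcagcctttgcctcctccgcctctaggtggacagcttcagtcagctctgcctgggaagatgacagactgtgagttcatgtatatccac
In Ccl7 the capitals are TTCCTC, which is GAGGAA on the other strand, and an NF-kB match. In Cxcl2 they are TTCCTC and 2 overlapping NF-kB matches, and in Bcl2a1 there are 3 matches of GAGGAA or its complement.

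Ccl3 and Ccl4, chemokines that attract leukocytes, were found in most cells. Ccl3 stood at 145, 339, 99.9 and 215 UMIs per 10000 in FT replicates 1, 2, 4 and 5, and at 168, 396, 41.9, 146 and 171 in Sham replicates 1 to 5. After thinning, 93.7% of Microglia1 cells had a Ccl3 UMI (86.8 to 97.6%), as did 80.4% of Microglia2 cells (66.9 to 90.2%). In Oligodend2 the share was 40.5% (29.9 to 51.8%) and the level only 3.33. Unthinned, the shares were 93.5% in Microglia1, 62.1% in Microglia2 and 61.1% in Oligodend2. Thinned, a Ccl4 UMI was seen in 93.7% of Microglia1 and 66.7% of Microglia2 cells. Ccl4 averaged 127 ± 60.3 and ran from 38.9 to 246, 80.4-fold above the non-microglial mean of 1.58. Cxcl2, a chemokine that draws neutrophils, averaged 62.7 ± 37.7, 104-fold above the non-microglial mean of 0.605.

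Il1b and Il1a, the ligands of the interleukin-1 receptor, were high in every replicate. Il1b stood at 70.9, 36.2, 38.7 and 65.2 in the FT replicates and at 57.5, 69.9, 20.8, 49.9 and 57.1 in the Sham replicates, a mean of 51.8 ± 17.0, and the groups overlapped. Il1a averaged 19.2 ± 7.53, with a UMI in 89.7% of cells (82.3 to 94.8%) against 11.6% of Oligodend2 cells (5.92 to 19.8%). Thinned, those shares were 87.4% and 2.38%, and the share of Microglia2 cells with an Il1a UMI was 33.3%. For Il1b the thinned shares were 88.4% in Microglia1 and 49.0% in Microglia2.

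Ccl2 and Ccl7, ligands of Ccr2 that draw monocytes, varied widely between replicates. Ccl7 stood at 9.16, 1.02, 9.58 and 26.8 in the FT replicates and at 3.20, 1.28, 40.1, 15.4 and 7.96 in the Sham replicates. Ccl2 stood at 33.8, 3.82, 29.9 and 46.4 in FT and at 23.3, 5.42, 60.8, 23.6 and 25.9 in Sham. FT replicate 2 and Sham replicate 2 were lowest for both genes and were the highest 2 for Ccl3, whereas Sham replicate 3 was highest for both and lowest for Ccl3. Sham replicate 3 also had the fewest cells and UMIs, and the part of depth in this order was not tested. Only 30 of the 107 cells held a Ccl7 UMI, and 1 cell held 152 of its 664 UMIs.

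Bcl2a1 averaged 17.2 ± 8.56, Fcgr2a, a receptor for the constant part of antibodies, 18.3 ± 3.87, and Plek, a substrate of protein kinase C, 13.7 ± 4.19. Cd74, the chaperone of MHC class II, ranged from 2.66 in Sham replicate 2 to 38.3 in FT replicate 5. Tnfsf18, a ligand of the TNF family, averaged 3.07 ± 1.71 and was near absent elsewhere, with at most 0.0610 in any non-microglial type.

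Microglia1 and Microglia2 shared their complement genes and differed in part of the cytokine list. C1qa averaged 30.9 ± 4.80 and 30.1 ± 11.4, C1qb 35.9 ± 6.20 and 33.2 ± 11.4, and Csf1r 9.97 ± 3.03 and 12.1 ± 3.98 (SD, n = 9 in each subtype). The cytokine and chemokine list summed to 537 (307 to 961 over replicates) in Microglia1 and 181 (12.6 to 396) in Microglia2, a 2.97-fold ratio, and was higher in Microglia1 in 9 of 9 replicates. Of 1877 genes with at least 1 UMI per 10000 in either subtype, 76 (4.05%) were higher in Microglia1 in 9 of 9 replicates and 42 (2.24%) were lower. Among 17 such genes of the cytokine list 7 were higher in 9 of 9, namely Il1a, Il1b, Ccl2, Ccl3, Ccl4, Ccl7 and Cxcl2, and 0 were lower. Other members had a lower mean in Microglia1, among them Nfkbia and Nfkbiz (log2 ratio over Microglia2 -0.30 and -0.33), or were near level, such as Tgfb1 (-0.03). No test was made, since the subtypes were clustered on these genes.

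**Figure D2:**
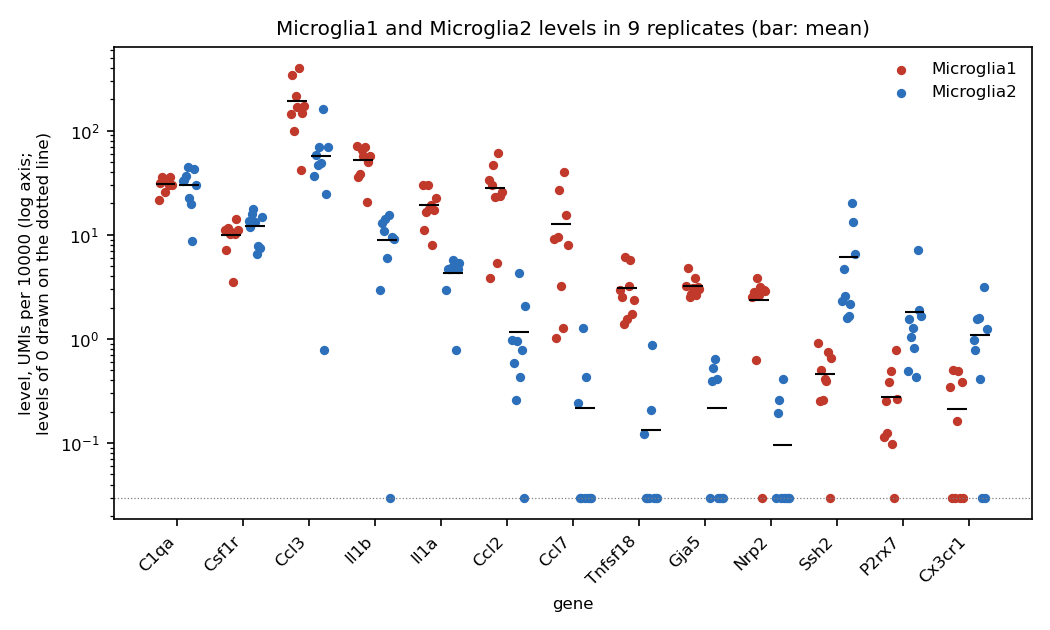
Level in UMIs per 10000 (log axis) of 13 genes in Microglia1 (red) and Microglia2 (blue), 1 point per replicate with the mean as a bar and levels of 0 on the dotted line. C1qa and Csf1r overlapped, Il1a, Ccl7, Tnfsf18 and Gja5 were higher in Microglia1 in each of the 9 replicates, and Ssh2 and P2rx7 were lower in each.

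The 10 highest ratios over Microglia2 were those of Ccl7, Cd44, Haus6, Nrp2, Ccl2, Tnfsf18, Gja5, Tubb6, Tm4sf19 and DNAH17. Ccl7 was 58.3-fold higher (log2 ratio 5.87) and Ccl2 24.3-fold (4.60). Gja5, which encodes the gap junction protein connexin 40, had the smallest SD for its mean of these 10, at 3.23 ± 0.718 with a range of 2.52 to 4.84 in Microglia1 against 0.219 ± 0.269, a 14.8-fold ratio. Nrp2, a co-receptor of semaphorins and VEGF, was 24.6-fold higher, with a UMI in 64 of 107 Microglia1 cells and 3 of 103 Microglia2 cells, although Sham replicate 3 was at 0. Tm4sf19 was 11.5-fold, Tubb6, a beta-tubulin, 13.5-fold and DNAH17, an axonemal dynein, 9.75-fold higher. Cd44, the hyaluronan receptor, and Haus6, an augmin subunit, had only 1 and 3 UMIs in Microglia2, so their pooled ratios of 23.4 (95% interval 4.0 to 942) and 20.0 (6.67 to 98.2) are loose.

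The 10 lowest ratios were those of Igkc, Catsperg1, Slc43a3, Gpr63, Ssh2, Dennd3, Atm, Depdc5, P2rx7 and Klf10. Ssh2, a phosphatase that activates the actin regulator cofilin, was at 0.462 ± 0.283 in Microglia1 and 6.15 ± 6.52 in Microglia2 and lower in 9 of 9 replicates. P2rx7, the ATP-gated channel, was 0.280 ± 0.242 against 1.81 ± 2.04. Atm, the DNA damage kinase, was 8.90-fold, Dennd3, an exchange factor for Rab proteins, 9.28-fold, Depdc5, an inhibitor of mTORC1 signalling, 6.53-fold, the transporter gene Slc43a3 18.5-fold and Klf10, a transcription factor, 6.32-fold higher in Microglia2. Gpr63, an orphan receptor, had 3 UMIs in Microglia1, with a pooled ratio of 15.1 in favour of Microglia2 (95% interval 4.52 to 78.6). Igkc, an immunoglobulin light chain, came from 2 Microglia2 cells with 52 UMIs, and 28 of 30 Catsperg1 UMIs came from 1 cell, so both ratios rest on those cells.

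The homeostatic list summed to 891 (733 to 1130) in Microglia1 and 733 (265 to 967) in Microglia2 and was higher in Microglia1 in 6 of 9 replicates, and most of each sum was Cst3, at 724 ± 107 and 553 ± 194. Of 15 measured homeostatic genes 2 were lower in Microglia1 in 9 of 9 replicates and 0 were higher. They were Tmem119, a surface marker of resting microglia, which was 3.41-fold higher in Microglia2, and Inpp5d, a lipid phosphatase, which was 5.25-fold higher there. The purinergic list summed to 2.07 (0.493 to 4.25) in Microglia1 and 6.25 (2.9 to 18.9) in Microglia2, with P2ry6 and P2rx7 lower in 9 of 9. Cd63 and Cd9, tetraspanins of the activated list, were 3.48-fold and 2.26-fold higher in Microglia1, and RT1-CE5, a class I MHC gene, 1.62-fold. The lysosome list summed to 248 and 247, the complement list to 91.2 and 86.3, the activated list to 230 and 197, antigen presentation to 77.5 and 55.8, interferon response to 10.0 and 5.88, heat shock to 75.7 and 60.4, and immediate early genes to 46.7 and 62.4 in Microglia1 and Microglia2, with ranges over replicates that overlapped in each. Paired within replicates, Microglia1 was higher in 8 of 9 for antigen presentation, 7 for the activated and interferon lists and 6 for heat shock. It was higher in 4 of 9 for complement, 3 for lysosome and 2 for immediate early genes. Among members of these lists, Apoe, the lipid carrier, averaged 95 ± 36.5 and 83.4 ± 44.5, B2m, the light chain of class I MHC, 19.3 ± 3.37 and 17.7 ± 6.65, and Hsp90aa1, a chaperone, 21.8 ± 9.35 and 20.0 ± 11.5. Dusp1, an early phosphatase of MAP kinases, ranged from 0.378 to 18.8 over Microglia1 replicates, and Zfp36, which shortens the life of cytokine RNAs, averaged 4.07 ± 2.16 in Microglia1 and 8.41 ± 3.91 in Microglia2 and was lower in Microglia1 in 8 of 9.

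Depth differed between the subtypes, so the ratios of the genes named above were taken again in cells with at least 2000 UMIs and 2% ribosomal UMIs (92 and 47 cells, medians 6832 and 4464 UMIs), a choice made after the data were seen. Ccl2 was then 21.6-fold, Haus6 19.5-fold, Nrp2 18.0-fold, Tnfsf18 17.7-fold, Gja5 12.8-fold, Tubb6 11.6-fold and Tm4sf19 8.89-fold higher in Microglia1. Each of them was higher in 8 of 8 replicates that had both subtypes. DNAH17 was 8.19-fold higher, but in 6 of 8, with Microglia2 higher in 2. Cd44 stood at 0 in Microglia2 and was higher in Microglia1 in 7 of 8. Ccl7 became 148-fold higher instead of 58.3-fold, with a Microglia2 level of only 0.0944. Il1b was 4.65-fold, Il1a 3.86-fold, Ccl3 2.85-fold and Ccl4 1.92-fold higher in Microglia1, each in 8 of 8 replicates, and Cxcl2 3.09-fold in 7 of 8. Nfkbia and Nfkbiz were 1.76-fold and 1.56-fold higher in Microglia2, each in 6 of 8. Tnf was 1.12-fold higher in Microglia1, in 5 of 8. Of the 10 genes of lowest ratio, 7 had a smaller ratio in these cells: Ssh2 was 5.49-fold instead of 13.3-fold, Slc43a3 4.34-fold instead of 18.5-fold, Atm 2.98-fold instead of 8.90-fold, Depdc5 2.70-fold instead of 6.53-fold and P2rx7 5.09-fold instead of 6.45-fold higher in Microglia2, and Gpr63 and Dennd3 also came down. Klf10 went the other way, from 6.32-fold to 10.6-fold, as did Igkc and Catsperg1, which rest on few cells. Of the 8 replicates, Microglia2 was higher in 7 for Ssh2, Gpr63 and P2rx7 and in 6 for Depdc5 and Dennd3. It was higher in 5 for Atm and Klf10, 4 for Slc43a3 and 2 for Igkc and Catsperg1. Microglia1 was higher in 2 replicates for Depdc5, Dennd3, Atm, Klf10 and Slc43a3 and in 1 for P2rx7 and Catsperg1. Among the listed genes, Tmem119 was 4.26-fold and Inpp5d 6.25-fold higher in Microglia2, P2ry6 was lower in Microglia1 in 8 of 8 replicates, and Cd63 3.49-fold, Cd9 2.04-fold and RT1-CE5 1.35-fold higher in Microglia1. Low-ribosomal cells made up 9.35% of Microglia1 and 22.3% of Microglia2, and their part in these ratios was not tested beyond that comparison.

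No gene passed the threshold for FT vs Sham in Microglia1. Replicate sums were compared with edgeR's quasi-likelihood test, and a gene was called a DEG at a p of 0.2 or less after Benjamini-Hochberg adjustment and a log2FC of at least 0.32 in size. Of 2797 genes tested 0 (0%) were called, the smallest adjusted p being 0.999. An unadjusted p under 0.05 was reached by 76 genes (2.72%), and DESeq2 called 0 with 51 genes under that p. The SE of a gene's log2FC was worked back from the test, as the size of the log2FC over the square root of its F statistic. It had a median of 0.49, which is the approximate precision that a typical gene had. By the study's methods the replicates are pools of different animals, so p-values here measure the spread between pools.

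The chemokine, interleukin-1 and C1q genes and Csf1r were among those not called in Microglia1. Log2FC (FT vs Sham) was 0.02 ± 0.51 (SE) for Ccl3, 0.03 ± 0.43 for Ccl4, -0.02 ± 0.34 for Il1b, 0.32 ± 0.34 for Il1a, -0.18 ± 0.49 for Cxcl2, 0.11 ± 0.55 for Ccl2 and -0.04 ± 0.77 for Ccl7. It was -0.05 ± 0.22 for C1qa, 0.17 ± 0.21 for C1qb and 0.03 ± 0.30 for Csf1r. For Ccl3, Ccl4, Cxcl2, Il1b, Ccl2 and Ccl7, changes of 1.5-fold in either direction lie within 2 SE of the estimate.

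**Figure D3:**
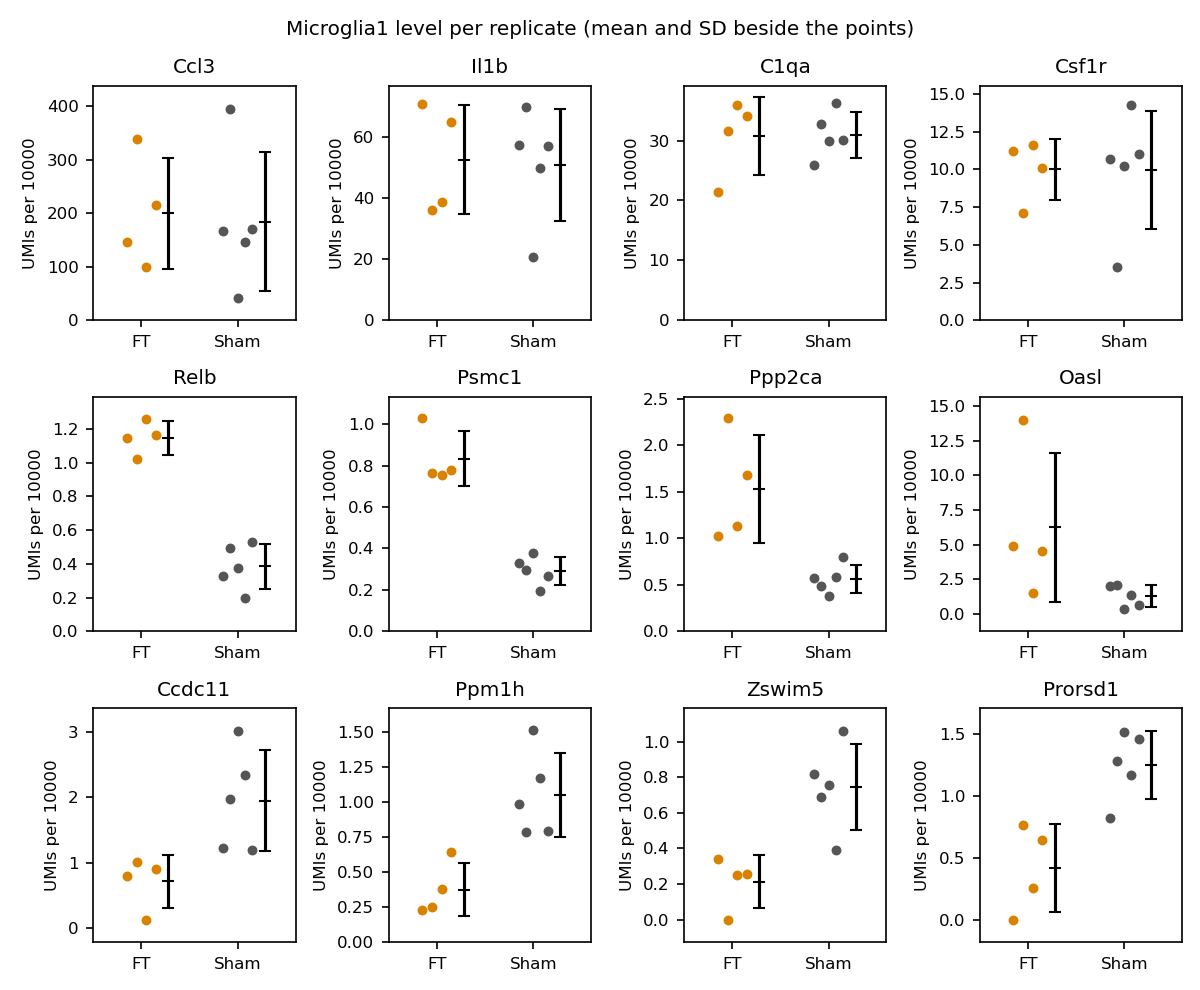
Level in UMIs per 10000 of 12 genes in Microglia1, 1 point per replicate in FT (orange, n = 4) and Sham (grey, n = 5), with the mean and SD beside the points. Ccl3, Il1b, C1qa and Csf1r overlapped between the groups, whereas Relb, Psmc1 and Ppp2ca did not overlap and were higher in FT, and Ccdc11, Ppm1h, Zswim5 and Prorsd1 did not overlap and were lower, none of them called.

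The genes with the smallest unadjusted p are given as values only, since none was called and each had an adjusted p of 0.999. The 8 higher in FT were Obfc1, Oasl, Relb, Psmc1, Ppp2ca, Rilpl1, Tcn2 and Pttg1ip, and the 8 lower were Grm5, Ankrd12, Ccdc11, Macrod1, Zswim5, Ppm1h, Crim1 and Prorsd1. The groups did not overlap for 24 genes higher in FT (0.858% of those tested) and 10 genes lower (0.358%).

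Relb, a subunit of NF-kB, stood at 1.14, 1.02, 1.26 and 1.16 UMIs per 10000 in the FT replicates and at 0.328, 0.493, 0.378, 0.195 and 0.531 in Sham (log2FC 1.44 ± 0.44). Psmc1, an ATPase of the proteasome, stood at 1.03, 0.764, 0.756 and 0.776 against 0.328, 0.296, 0.378, 0.195 and 0.265 (1.42 ± 0.46). Ppp2ca, the catalytic subunit of protein phosphatase 2A, stood at 1.03, 2.29, 1.13 and 1.68 against 0.574, 0.493, 0.378, 0.585 and 0.796 (1.27 ± 0.42). The groups did not overlap for these 3 genes, but they rest on 48, 35 and 62 UMIs in all. Rilpl1, Tcn2, which carries vitamin B12, and Pttg1ip also did not overlap, with log2FC of 1.43 ± 0.47, 1.44 ± 0.48 and 1.20 ± 0.43.

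Oasl, an interferon-induced gene, stood at 4.92, 14, 1.51 and 4.53 in FT and at 2.05, 2.07, 0.378, 1.37 and 0.663 in Sham (log2FC 2.01 ± 0.57). The groups overlapped, and 1 cell of FT replicate 2 held 47 of that replicate's 55 UMIs. Obfc1, a gene of telomere maintenance, had 34 of its 38 UMIs in 1 cell of FT replicate 5. Isg15, another interferon-induced gene, went the other way (log2FC -2.44 ± 0.96), with 39 of 43 UMIs of Sham replicate 2 and 33 of 36 of Sham replicate 4 in a single cell each.

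Among the genes lower in FT, Ccdc11 stood at 0.801, 1.02, 0.126 and 0.906 against 1.23, 1.97, 3.02, 2.34 and 1.19 in Sham (log2FC -1.43 ± 0.50). Ppm1h, a protein phosphatase, stood at 0.229, 0.255, 0.378 and 0.647 against 0.984, 0.788, 1.51, 1.17 and 0.796 (-1.36 ± 0.48). Zswim5 and Prorsd1 did not overlap either, at -1.64 ± 0.57 and -1.72 ± 0.62. Grm5, a metabotropic glutamate receptor with a level of 20.9 in ExcitNeuron and 1.30 in Microglia1, was at -1.77 ± 0.60, Ankrd12 at -1.62 ± 0.55, Macrod1 at -2.34 ± 0.81 and Crim1 at -1.81 ± 0.65, and these 4 overlapped. The neuron list summed to 3.66 to 5.42 in FT and 2.54 to 9.15 in Sham, and its part in the Grm5 values was not tested.

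Taken by list, 0 genes were called in any of them, where the median log2FC of all genes tested was -0.02. Of all 2797 genes tested 1343 were above 0 and 1454 below. Members of a list were read in the same replicates, so their signs are not independent, and no list was tested as a set. Of the 17 cytokine genes tested 9 were above and 8 below 0 (median 0.02), of 14 homeostatic genes 9 and 5 (0.03), of 9 complement genes 5 and 4 (0.16), and of 20 lysosome genes 14 and 6 (0.08), among which Ctsc, a protease, was the 1 gene with groups that did not overlap. Of 11 activated genes 10 were above 0 (median 0.24) and 1 below, and of 9 antigen presentation genes 6 and 3 (0.36). The summed activated list ran from 189 to 302 in FT and from 135 to 270 in Sham, and antigen presentation from 40.2 to 122 and from 45 to 93.7, so both overlapped. Heat shock had 3 of 10 above 0 (median -0.05), immediate early genes 8 of 15 (0.00) and interferon response 1 of 5 (-0.48).

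Fluoxetine blocks the serotonin transporter, so the serotonin genes were read on their own. The 14 serotonin genes in the table summed to 2.81 UMIs per 10000 in Microglia1 (1.56 to 4.54), close to the 2.80 of Microglia2. Both sums were below the 3.70 of the lowest non-microglial type. In Microglia1 Htr1f, Htr3a, Htr5a and Htr6 were at 0. Only Htr2a (1.29 ± 0.390) and Htr4 (0.598 ± 0.285), receptors known from neurons, passed the filter, with log2FC of 0.15 ± 0.36 and -0.27 ± 0.55. No purinergic gene passed the filter.

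Transcripts of other cell types were compared as summed lists. Oligodendrocyte genes summed to 41.5 to 91.7 in FT and 32.1 to 129 in Sham with all 7 tested genes below 0 (median -0.40), and all 4 tested endothelial genes were above 0 (median 0.45), with sums of 5.42 to 7.64 in FT and 2.73 to 7.46 in Sham. Astrocyte genes summed to 2.86 to 11.2 and 2.46 to 4.59, OPC genes to at most 1.31, mural genes to at most 0.687 and hemoglobin and other red blood cell genes to at most 6.90. Choroid plexus genes summed to 1.14 to 18.9 in FT and 0 to 6.24 in Sham, with the highest value in FT replicate 4. Their part in the FT vs Sham values was not tested.

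Whether the response to fluoxetine differed between the subtypes was tested as an interaction, with each replicate as a block because it gave both subtypes. Of 3125 genes 0 (0%) were called (smallest adjusted p 0.999, edgeR), and 105 (3.36%) had an unadjusted p under 0.05. The smallest unadjusted p belonged to Calcrl, Atp6v0a1 and Plin2, whose log2FC was higher in Microglia1 than in Microglia2 by 2.29 ± 0.76, 2.26 ± 0.81 and 3.11 ± 1.16, and to Lamtor5, Ncf1 and Neurl3, where the difference was -4.13 ± 1.19, -3.32 ± 0.97 and -3.14 ± 1.06. Calcrl encodes a receptor for CGRP and adrenomedullin, Plin2 a coat protein of lipid droplets and Ncf1 a subunit of the phagocyte oxidase, and none of the 6 was called.

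The share of Microglia1 among dorDG cells did not differ detectably. It was 9.79, 3.55, 12.2 and 11.1% in the FT replicates and 6.96, 10.1, 6.00, 8.15 and 10.3% in Sham, so FT held both the lowest and the highest values. The means were 9.17% ± 3.87 (n = 4) and 8.32% ± 1.92 (n = 5; two-sided exact permutation p = 0.683, adjusted over 2 shares 0.683), and the sign of the difference turned under several alternatives. Among microglia Microglia1 made up 43.8, 29.2, 59.3 and 47.8% in FT and 53.3, 66.7, 35.3, 61.1 and 66.7% in Sham, means of 45% ± 12.4 and 56.6% ± 13.1 (exact permutation p = 0.214, adjusted 0.429). Without cells of under 2% ribosomal UMIs these became 46.2% ± 8.72 and 64.9% ± 9.10, with 1 FT replicate still inside the Sham range. The exact permutation p there was 0.0397, not adjusted for the alternative settings tried. The smallest p that 4 against 5 replicates allow is 0.00794.

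**Figure D4:**
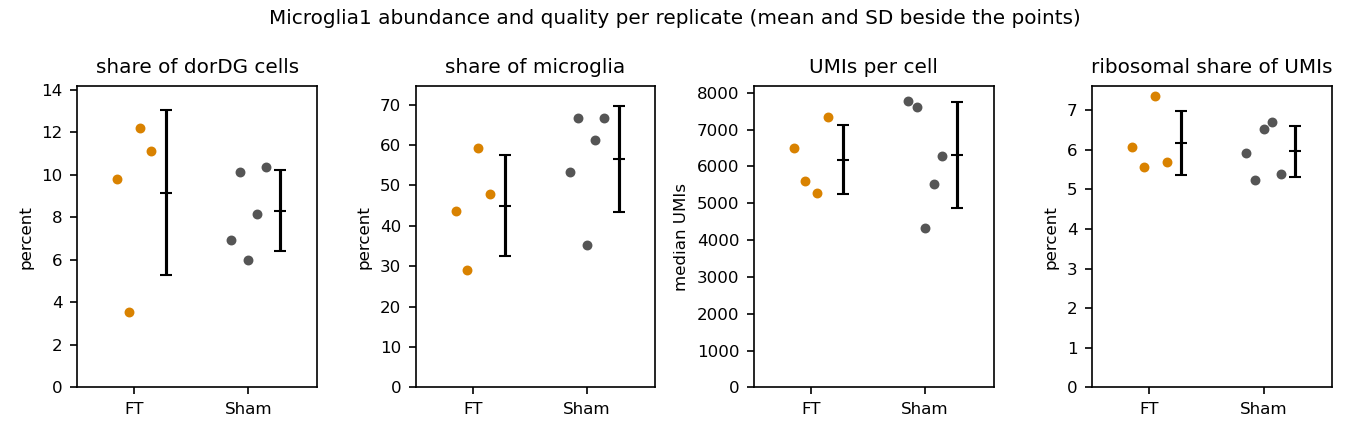
Microglia1 as percent of dorDG cells, as percent of microglia, median UMIs per Microglia1 cell and ribosomal percent of Microglia1 UMIs, 1 point per replicate in FT (orange, n = 4) and Sham (grey, n = 5), with the mean and SD beside the points. FT and Sham overlapped in all 4 panels.

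Depth and quality of Microglia1 overlapped between the groups. The median UMIs per cell averaged 6177 ± 939 in FT and 6305 ± 1445 in Sham, and the median genes per cell 2202 ± 267 and 2200 ± 370 (exact permutation p = 0.833 and 1). The mitochondrial share of UMIs was 4.71% ± 0.329 and 4.65% ± 1.38, the ribosomal share 6.17% ± 0.818 and 5.95% ± 0.651, the oxphos share 0.839% ± 0.0924 and 0.779% ± 0.103, and the share of low-ribosomal cells 9.19% ± 3.60 and 13.2% ± 13 (exact permutation p = 0.913, 0.706, 0.389 and 0.667). Adjusted over the 6 measures every p was 1. Thinned to 2000 UMIs, with 2 FT and 10 Sham cells left out, the median genes per cell were 1046 ± 33.9 and 1002 ± 33.3 (exact permutation p = 0.103).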

How the data were processed

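Raw UMI counts per gene and cell were deposited by the authors, who made them with Cell Ranger v2.1.0 (the processing notes name rn5 and Seurat 3), filtered cells and named 12 dorDG types by clustering. Microglia1 cells were matched to the counts by cell name. Groups and replicate numbers came from the labels, and the 52 dorDG libraries (4 per reaction) were summed per replicate. Microglia1 replicates with at least 5 cells were tested with edgeR 4.0.16 (TMM, R 4.3.3), with genes filtered at a mean of 0.5 UMIs per 10000. DESeq2 1.42.0, limma 3.58.1 (pseudocount 0.01) and other filters were alternatives. Shares and quality were tested with exact permutation tests (scipy 1.17.1, 126 splits). Replicate sums differed beyond counting error in all pairs within groups (chi-square per degree of freedom 2.12 to 6.11). A ratio with a side at 0 UMIs was set against a floor of 3 counts. Ribosomal, oxphos and mitochondrial sets held 119, 75 and 24 genes.

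Named genes were the 12 highest ratios over the non-microglial types, the 10 highest and 10 lowest over Microglia2, and, as fewer than 10 genes were called, the 8 smallest p per direction (3 for the interaction), without unnamed loci, plus the highest members of each list, of which 1 is not reported here. Btbd11 and Ttr beyond this rule were chosen after their values were seen. The members and lists were chosen with earlier results of these data known. No doublet caller was run, and none is named in the sources used here. Ventral counts were used only for their number of cells, and the log-normalized ventral values were not used.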

Additional observations from a re-analysis of the deposited data

Results flagged for a closer look

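In 5 of 56 groups of replicates examined, 1 replicate lay far from the rest of its group, where chance flags about 1 group in 20. That rate need not hold where all other replicates are at 0, or for genes named for a small p in these data. Obfc1 in FT stood at 4.40 UMIs per 10000 in replicate 5 against at most 0.229 in the others, and 34 of its UMIs came from 1 cell. In Sham, Obfc1 stood at 0.0820 in replicate 1 and at 0 in the others, which is a single UMI. Psmc1 stood at 1.03 in FT replicate 1 against 0.756 to 0.776 in the other FT replicates, and Pttg1ip at 2.29 in FT replicate 2 against 1.26 to 1.39. P2ry12 stood at 0.133 in Sham replicate 5 and at 0 in the other Sham replicates.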

How the results depend on the processing

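The count of 0 genes called for FT vs Sham held with RLE scaling, DESeq2, limma, a stricter filter, other cell minima, first reactions only, cells of at least 2% ribosomal UMIs and each replicate left out (0 to 0). Without a filter on low counts 5 of 15453 genes were called: Obfc1, Ttr and Oasl higher and Isg15 and Btbd11 lower (adjusted p 1.5e-04 to 0.0378, edgeR), with 1 cell holding 34 of 38 Obfc1 UMIs, 69 of 141 Btbd11 UMIs and 1 replicate 141 of 181 Ttr UMIs. The study's methods say that Sham and FT samples of a replicate were handled side by side, in the section on frozen punches for the bulk assays. No source used here says so of FT and Sham replicates of the same number for single cells (correlations of deviations 0.0596, 0.242, 0.180 and 0.0263). The replicate block gave 0 called with 95 unadjusted p under 0.05 instead of 76. With the replicate block the FT minus Sham difference in the share of microglia was -16.9 points, below 0 in 4 of 4 pairs, and that in the ribosomal share 0.353 points, above 0 in 4 of 4, each with an exact permutation p of 0.125, the smallest that 4 pairs allow. The interaction stayed at 0 in all alternatives run (0 to 0 on leaving out replicates), with a smallest adjusted p of 0.438 in cells of at least 2% ribosomal UMIs (3 Sham replicates). The FT minus Sham difference in Microglia1 share of dorDG cells (0.848 points) turned to -2.52 with first reactions only, -4.88 with cells of at least 2% ribosomal UMIs, -0.664 among glial and vascular cells, and ran from -0.167 (without FT replicate 4) to 2.72 on leaving out replicates. For the share of microglia it was -18.7 points (exact permutation p = 0.0397, unadjusted) with cells of at least 2% ribosomal UMIs against -11.6 in all. It was -16.9 to -6.34 on leaving out replicates. Why these moved was not tested. The median UMIs differed by 30.3 with first reactions only and by -619 to 239 on leaving out replicates. With the replicate block the differences were -128 in median genes, -0.0374 points in mitochondrial share and 1.0 points in low-ribosomal cells. Leaving out replicates gave -128 to 112 genes, -0.337 to 0.567 points of mitochondrial, -0.182 to 0.417 of ribosomal, 0.0238 to 0.0992 of oxphos UMIs and -7.33 to 1.0 points of low-ribosomal cells. The C1qa ratio of Microglia1 over Microglia2 (log2 0.04) became -0.14 in cells of like depth, that of B2m (0.12) became -0.0433 and that of Hsp90aa1 (0.12) -0.41. With 6 to 16 cells per replicate, depth limits every gene of low level.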
